A study of Mus musculus with 28 samples.

Results

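The genes described here are the mouse serpins, taken as every autosomal protein-coding gene whose symbol starts with Serpin in the GENCODE M21 annotation of mm10. The rule found 60 of 20807 autosomal protein-coding genes. Of these, 53 lay in 5 clusters, in which neighbouring gene starts were no more than 1 Mb apart, and 7 were single genes with no other serpin start within 1 Mb. For each gene it was asked whether its start lay inside a domain of H3K9me2, the dimethylation of histone H3 at lysine 9, which marks repressed chromatin and is deposited by the methyltransferases EHMT1 and EHMT2.

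The cells were mouse embryonic stem cells (mESCs) of a BL6/129 hybrid background whose EHMT2 carries a dTAG degron, a tag that makes the protein degradable by the small molecule dTAG-13. In the line EHMT2-dTAG-mcherry MERV-GFP, cells were kept for 72 h in dTAG-13 or in its solvent DMSO and were sorted by a reporter of the MERVL retroviral element into mESCs without GFP and 2-cell-like cells (2CLCs) with GFP, the latter being scarce cells of the culture that resemble the embryo at the 2-cell stage. The 4 sorted conditions (mESC and 2CLC, each with DMSO and with dTAG) have 3 ChIP and 3 input libraries each, all from one clone according to the methods, and bulk mESCs after 24 h in DMSO have 2 of each, for 28 libraries in all. All 4 sorted conditions thus carry the degron and the reporter, and the retinoid TTNBP was added for 2 of the replicates by the labels, which do not say which, whereas the methods give no such limit. The cultures also held feeder cells according to the methods. Neither the identity of the sorted cells nor the loss of EHMT2 could be checked, because the files used here hold domain positions and no expression values.

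There was 1 list of domains for each sorted condition and 1 list whose name gives no condition, called the unnamed set here and assigned to no group. No list holds a value per replicate. The spread between replicates is therefore unknown, no test between conditions was possible, and every comparison below is a description of 2 lists. A start inside a domain says where a domain was called and is not a level of the mark. Values set side by side for several lists follow 1 order throughout, mESC with DMSO and then with dTAG, 2CLC with DMSO and then with dTAG, and last the unnamed set. In that order the autosomes held 3870, 6770, 3870, 8281 and 6115 domains, and the median widths over each whole list were 145, 60, 120, 55 and 150 kb. Domains were thus more numerous and narrower in both dTAG lists.

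Most serpins are inhibitors of serine proteases. They offer the protease an exposed reactive loop as bait and trap it by a large change of shape when the loop is cut, while some members inhibit cysteine proteases and others, such as the collagen chaperone Serpinh1, inhibit none. The clade A genes mostly encode proteins that the liver secretes into plasma, the clade B genes encode inhibitors that mostly stay inside cells, and both clades have expanded in the mouse by tandem duplication. Many of these genes are used in liver, skin or immune cells.

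The share of serpin starts in H3K9me2 domains was above that of all gene starts in every list. In mESC DMSO, 43 of 60 starts (71.7%) were inside, beside 21.4% of all autosomal protein-coding genes. The count was 41 (68.3%) in mESC dTAG, beside 22.8%, and 38 (63.3%) in 2CLC DMSO, beside 22.1%. It was 36 (60%) in 2CLC dTAG, beside 25.5%, and 51 (85%) in the unnamed set, beside 29.8%. The same 30 serpins (50%) were inside in all 4 sorted lists, beside 14.4% of all genes, and 10 (16.7%) were inside in none of the 4, beside 67.1%. The remaining 20 (33.3%) differed between sorted lists, as did 18.5% of all genes.

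Clustered serpins had a larger share inside than single ones. Of the 53 clustered genes, 42, 40, 37 and 35 were inside in the 4 sorted lists and 49 in the unnamed set, which is 79.2, 75.5, 69.8, 66 and 92.5%. Of the 7 single genes, 1 (14.3%) was inside in each sorted list and 2 (28.6%) in the unnamed set. Counts of 1 or 2 in 7 are near the shares of all genes given above, and with the 1 single serpin of chromosome X added the shares were 25, 12.5, 25, 25 and 37.5%. The clustered genes are not independent of each other, since 49 of the 53 sit in only 3 regions, and neighbours often share 1 domain. The 4 members of the pairs on chromosomes 3 and 11, which also count as clustered, had 0, 1, 1 and 0 starts inside in the 4 sorted lists, and thus had a share closer to that of the single genes than to that of the large clusters.

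**Figure D1:**
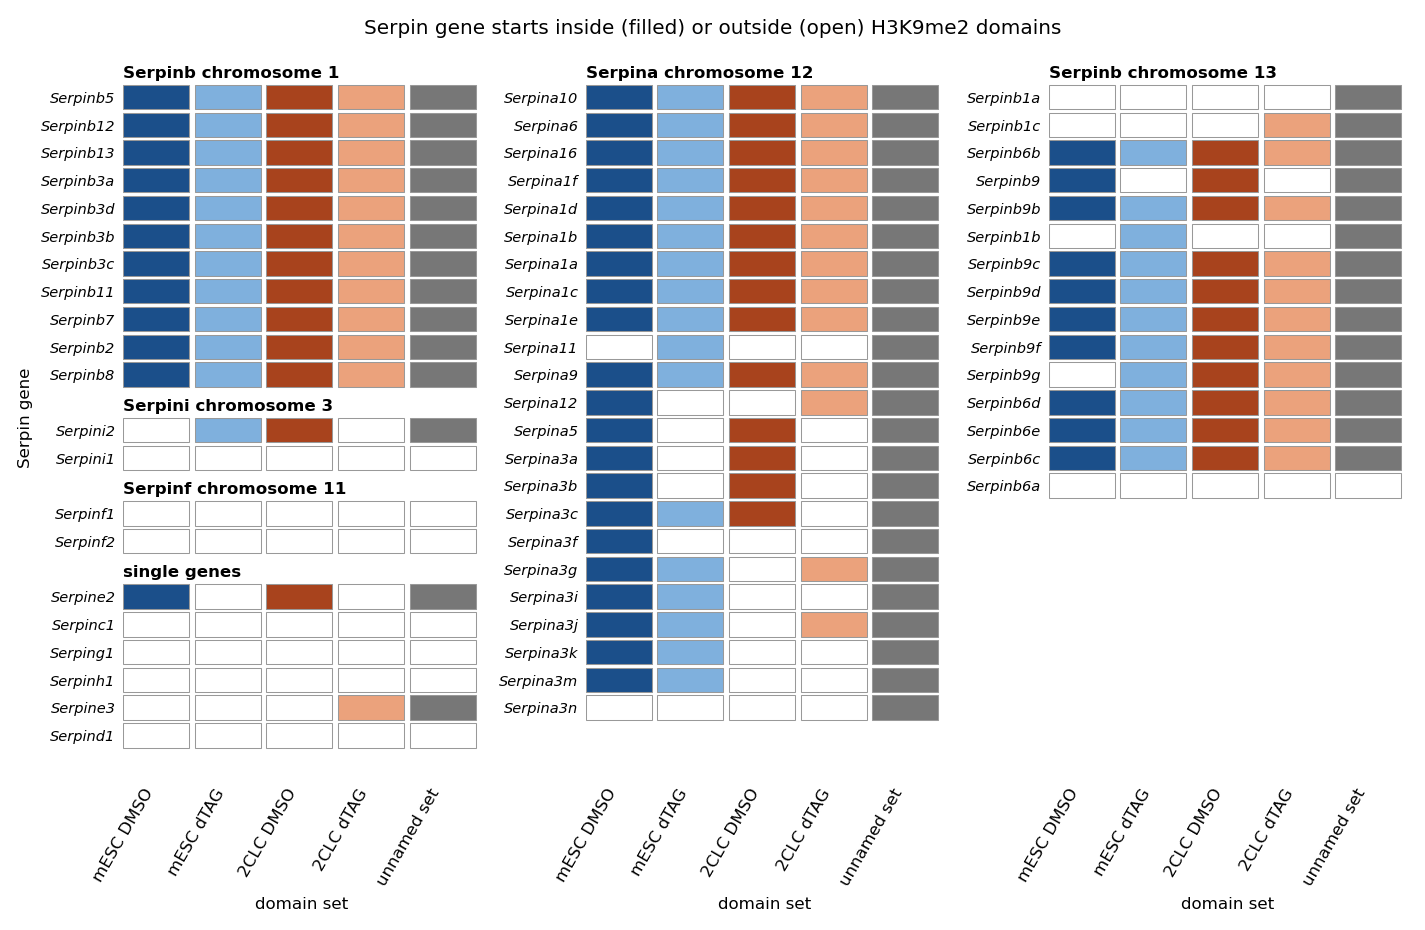
Each row is 1 serpin gene in chromosome order, with 59 of the 60 drawn, and each column 1 domain set, with a filled cell where the gene start lies inside an H3K9me2 domain and an open cell where it lies outside. All 11 genes of the chromosome 1 cluster are filled in all 5 sets, the chromosome 12 cluster is filled in its first part and mixed in its second, and the single genes are mostly open.

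Other genes flanking the clusters did not share the placement of the clustered serpins. Outside the cluster spans but within 1 Mb of them there were 95 other protein-coding starts, of which 6.32, 8.42, 6.32, 8.42 and 30.5% were inside. The 234 other genes within 1 Mb of single serpins were at 18.4, 17.9, 19.7, 20.1 and 29.1%, nearer to all genes. Only 5 other protein-coding genes start within the cluster spans. Of these, Wdr49 was inside in all 5 lists, Gm11397 in all but mESC DMSO, and Pdcd10, Nqo2 and Ripk1, the last a kinase of cell death signalling, were outside in all 5.

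**Figure D2:**
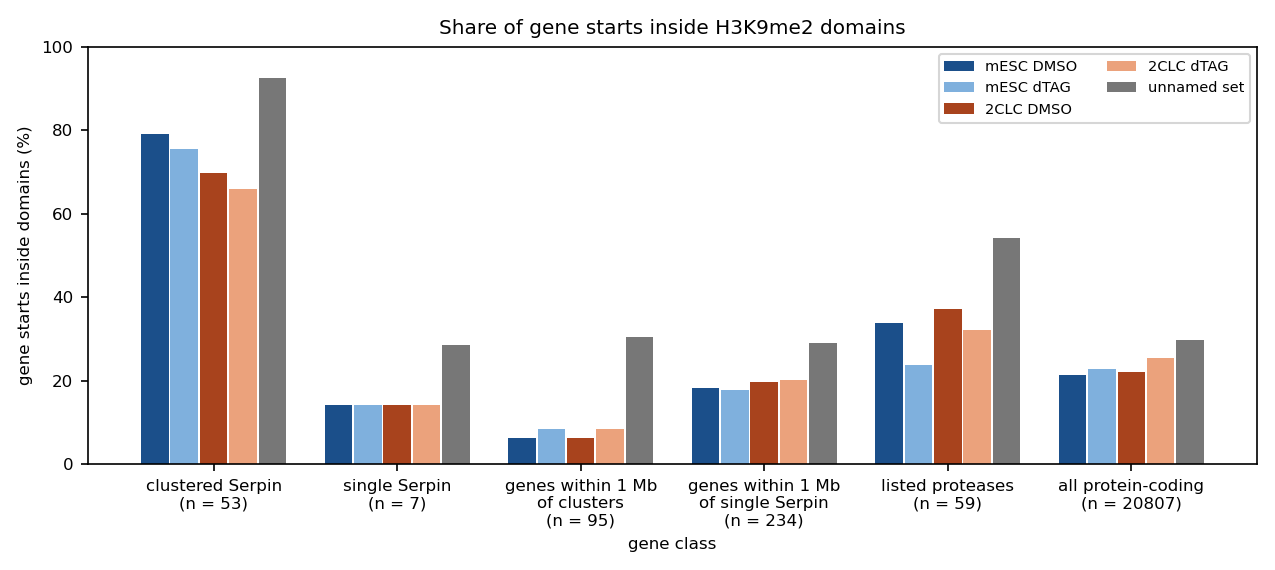
Bars give the percentage of gene starts inside H3K9me2 domains for 6 gene classes, with 1 bar for each of the 5 domain sets and no error bar because no list has replicates. Clustered serpins stand at 66 to 92.5%, and the genes within 1 Mb of the clusters at 6.32 to 30.5%.

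The proteases that serpins act on had smaller shares inside than the serpins in every list. The protease share was near that of all genes in mESC dTAG and above it in each of the other lists. From a list of 60 serpin target proteases and close relatives, 59 were found on autosomes. Of these, 20, 14, 22, 19 and 32 were inside (33.9, 23.7, 37.3, 32.2 and 54.2%), beside 21.4, 22.8, 22.1, 25.5 and 29.8% of all genes. In all 4 sorted lists 9 were inside (15.3%, beside 14.4%), and in none of them 33 (55.9%, beside 67.1%). The starts inside in all 4 included Gzmb, the granzyme that Serpinb9 inhibits, and the trypsin genes Prss1 and Try4. The starts inside in none included the coagulation proteases F2 (thrombin), F7 and F10, whose inhibitor antithrombin is the product of the single gene Serpinc1.

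The clade B cluster on chromosome 1 was inside domains throughout. It runs from the start of Serpinb5 at 106861173 to that of Serpinb8 at 107590006, a span of 729 kb with 11 serpins and no other protein-coding start. All 11 were inside in all 5 lists, and domains covered 100, 95.9, 100, 99.3 and 98.6% of the span. Its members include Serpinb5 (maspin, a clade B protein without inhibitor activity), Serpinb2 (plasminogen activator inhibitor type 2) and the Serpinb3 genes, relatives of the human squamous cell carcinoma antigens.

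The lists differed in how the domains around this cluster were divided. In mESC DMSO all 11 starts lay in 1 domain of 5565 kb, and in 2CLC DMSO in 1 domain of 11475 kb. In mESC dTAG, Serpinb5 lay in a domain of 50 kb and the other 10 in one of 4955 kb, with a gap of 30 kb between them. In 2CLC dTAG, Serpinb5 lay in a domain of 90 kb, and the other 10 lay in one of 705 kb, with the start of Serpinb8 only 0.1 kb inside its edge. That edge was followed by a gap of 1 bin of 5 kb and then by a domain of 4820 kb, so the region past the last serpin was in domains in all 4 sorted lists. The promoters of this cluster were poor in CpG. The RefSeq promoter table held 10 of them, and over the 250 bases before the start their median count of CpG was 0 and their median GC content 39%, beside medians of 6 and 52.4% over 31396 autosomal promoter entries. The motif TATAAA, searched on both strands, occurred in 7 of these 10 promoters, beside 12.4% of all entries.

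The clade A cluster on chromosome 12 was divided. It runs from the start of Serpina10 at 103631444 to that of Serpina3n at 104406729, a span of 775 kb with 23 serpins and no other protein-coding start. The number of starts inside was 21, 17, 14 and 13 in the 4 sorted lists and 23 in the unnamed set. Domains covered 93.6, 73.6, 62.6, 72.3 and 96.8% of the span. In mESC the share was 20 points lower with dTAG than with DMSO, and in 2CLC it was 9.7 points higher, although the number of starts inside was lower with dTAG in both states. When domains narrower than 50 kb were left out, the rise in 2CLC was 3.2 points.

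The first part of the cluster was stable. The 9 starts from Serpina10 to Serpina1e lay in 1 domain in each sorted list, with widths of 435, 425, 400 and 380 kb. They include Serpina10, an inhibitor of coagulation factor X, Serpina6, the carrier of corticosteroids in blood, and the Serpina1 genes for alpha-1-antitrypsin, the main plasma inhibitor of neutrophil elastase. Serpina9, further along, was also inside in all 5 lists, in domains of 250, 425, 30 and 55 kb in the 4 sorted lists. The genes Serpina1a to Serpina1e are near copies of each other, which bears on how reads can be placed. Between 39.5% (Serpina1e) and 55.1% (Serpina1c) of the 50-base words in their bodies occurred more than once on chromosome 12, beside 9.39% over the chromosome. The copies are shown by the stretch before each RefSeq start, which carries in all 5 an identical run of 55 bases, printed in capitals. The stretches are on the minus strand of GRCm38.p6, at chr12:103863620-103863739, chr12:103738190-103738309, chr12:103904951-103905070, chr12:103773634-103773753 and chr12:103956899-103957017 from a to e, and all are 5′ to 3′.
Serpina1a: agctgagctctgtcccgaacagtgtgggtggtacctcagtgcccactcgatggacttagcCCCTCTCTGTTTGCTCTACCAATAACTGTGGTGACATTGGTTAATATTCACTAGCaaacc
Serpina1b: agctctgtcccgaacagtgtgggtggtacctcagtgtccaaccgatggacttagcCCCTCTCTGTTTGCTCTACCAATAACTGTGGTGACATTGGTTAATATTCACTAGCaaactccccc
Serpina1c: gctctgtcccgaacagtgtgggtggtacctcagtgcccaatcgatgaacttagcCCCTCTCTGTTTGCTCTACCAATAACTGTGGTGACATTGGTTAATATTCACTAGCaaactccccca
Serpina1d: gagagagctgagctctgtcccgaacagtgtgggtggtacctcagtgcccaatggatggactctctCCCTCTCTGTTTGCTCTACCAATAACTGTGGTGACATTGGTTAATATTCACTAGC
Serpina1e: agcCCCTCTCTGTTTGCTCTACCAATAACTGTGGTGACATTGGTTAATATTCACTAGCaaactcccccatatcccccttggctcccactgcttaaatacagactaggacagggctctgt
The start of Serpina1b in GENCODE comes from a long transcript and lies 92184 bp from the RefSeq start, and both positions were inside in all 5 lists.

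At the end of the first part, Serpina11 was outside while both neighbours, Serpina1e and Serpina9, were inside. Its start was 7 kb outside in mESC DMSO and in 2CLC DMSO, 3 kb outside in 2CLC dTAG, and 37 kb deep in a 425 kb domain in mESC dTAG. This was the one sorted list in which no gap was called between the domains on its sides.

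The second part changed with both treatment and cell state. In mESC DMSO, 8 starts from Serpina9 to Serpina3g lay in a domain of 250 kb and 4 from Serpina3i to Serpina3m in one of 125 kb. In mESC dTAG a gap of 115 kb opened over Serpina12, Serpina5, Serpina3a and Serpina3b. In 2CLC dTAG a gap of 140 kb lay over Serpina5, Serpina3a, Serpina3b and Serpina3c. Serpina5 is the protein C inhibitor, Serpina12 is the adipokine vaspin, and the Serpina3 genes are the mouse relatives of alpha-1-antichymotrypsin.

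Serpina5, Serpina3a and Serpina3b were inside in both DMSO lists and outside in both dTAG lists. Serpina5 lay 104 kb inside its domain in mESC DMSO and 29.1 kb inside in 2CLC DMSO, and it was 40.9 kb and 49.1 kb outside in mESC dTAG and 2CLC dTAG. Serpina3a was 116 and 40.7 kb inside in the DMSO lists and 29.3 and 60.7 kb outside in the dTAG lists. Serpina3b was 119 and 54 kb inside and 14 and 64 kb outside. None of these 12 placements was within 5 kb of an edge, the width of a bin. Serpina3c was inside in mESC DMSO, mESC dTAG and 2CLC DMSO and 38.1 kb outside in 2CLC dTAG.

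The last 225 kb of the span, over Serpina3f, Serpina3g, Serpina3i, Serpina3j, Serpina3k, Serpina3m and Serpina3n, held no domain in 2CLC DMSO. All of these but Serpina3n were inside in mESC DMSO. Serpina3i, for example, was 11.1 kb inside in mESC DMSO and 6.1 kb inside in mESC dTAG, and it was 81.1 kb outside in 2CLC DMSO and 3.9 kb outside in 2CLC dTAG. Serpina3j was 62.4 and 27.4 kb inside in the mESC lists, 133 kb outside in 2CLC DMSO and 22.4 kb inside in 2CLC dTAG. With dTAG, short domains of 15 to 85 kb lay over this stretch in both cell states, so that many starts there were near an edge. Serpina3g was 10.7 kb inside in mESC DMSO, 54.3 kb outside in 2CLC DMSO and 0.7 kb inside in each dTAG list. Serpina3f was 32.4 kb inside in mESC DMSO, 32.6 kb outside in 2CLC DMSO, and 2.6 and 2.4 kb outside in mESC dTAG and 2CLC dTAG.

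Serpina3k and Serpina3m share 1 start in GENCODE, which was 38.5 kb inside in mESC DMSO, 3.5 kb inside in mESC dTAG, 157 kb outside in 2CLC DMSO and 1.5 kb outside in 2CLC dTAG. For Serpina3m this start belongs to a long transcript. Its RefSeq start lies 48671 bp away, where it was inside in 2CLC dTAG and the unnamed set and outside in the 3 other lists. Serpina3n, the last gene, was 29.7, 19.7, 225 and 9.7 kb outside in the 4 sorted lists, and 20.4 kb inside in the unnamed set. Serpina12 moved in opposite directions in the 2 cell states: it was 47.5 kb inside in mESC DMSO, 17.5 kb outside in mESC dTAG and in 2CLC DMSO, and 7.5 kb inside in 2CLC dTAG.

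Counted in bases, 48.4% of the chromosome 12 span was in domains in all 4 sorted lists. A further 15.5% (120 kb) was in all but 2CLC DMSO, 9.67% (75 kb) in both DMSO lists alone, and 8.38% (65 kb) in mESC DMSO alone. In the 3 widest gaps, 1.5% (115 kb in mESC dTAG), 1.39% (140 kb in 2CLC dTAG) and 7.93% (225 kb in 2CLC DMSO) of the 50-base words were found more than once on the chromosome, beside 9.39% over the chromosome. Some shorter gaps were higher, with 11 and 10.3% in a pair of gaps of 20 kb in mESC dTAG, 12.5% in one of 20 kb in 2CLC dTAG, and 42.6 and 51.4% in a pair of gaps of 10 kb in the unnamed set.

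**Figure D3:**
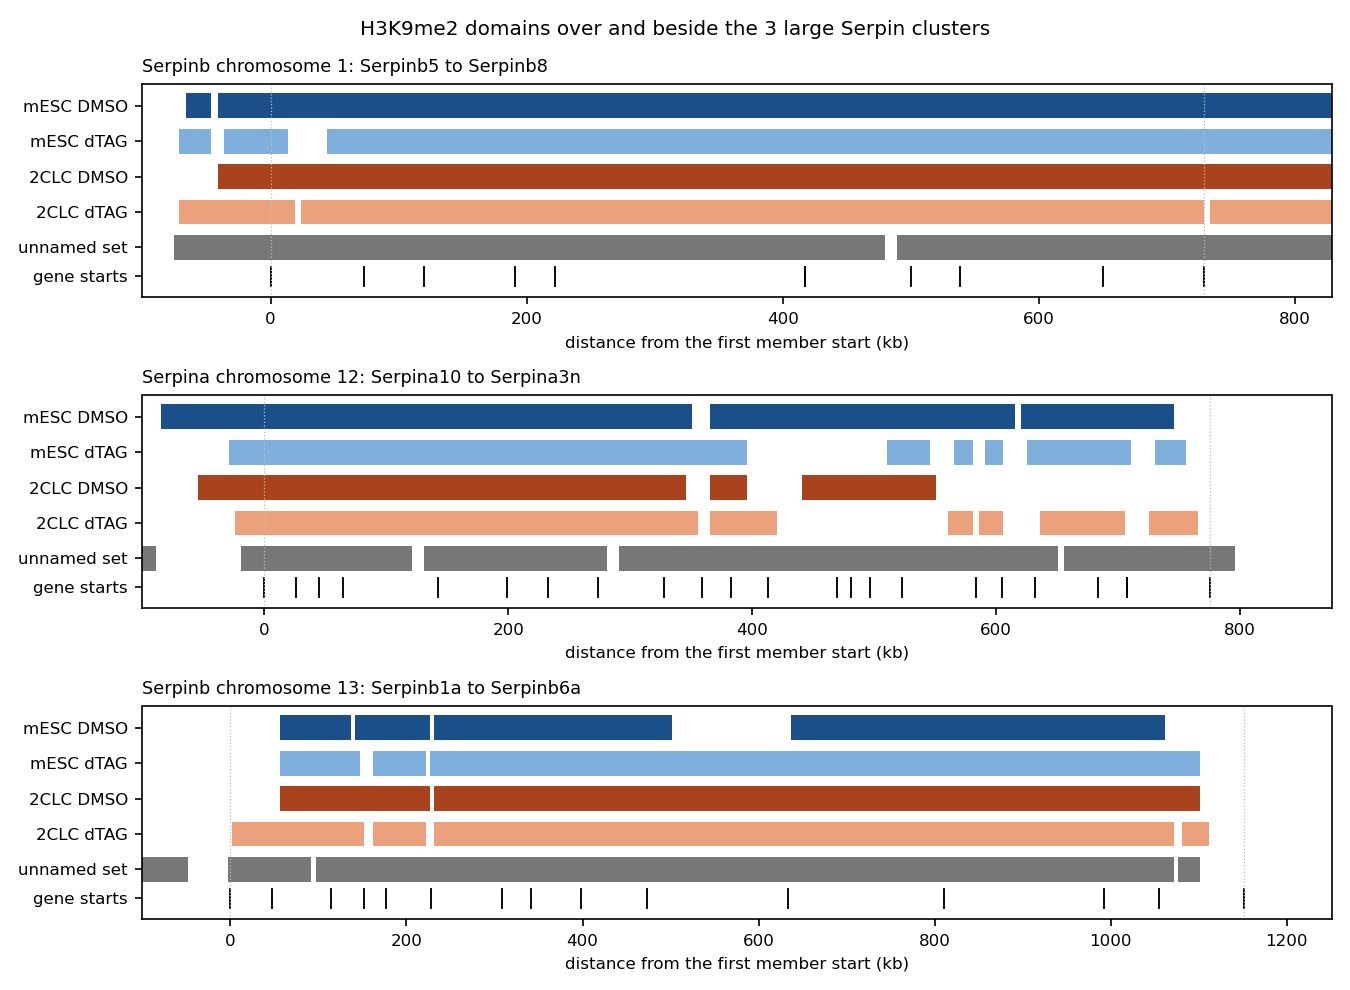
Bars are the H3K9me2 domains of the 5 sets along the 3 large serpin clusters, with the x axis giving the distance in kb from the first member start, shown with 100 kb on both sides, and black ticks marking gene starts (Serpinb3b and Serpinb3c, and Serpina3k and Serpina3m, each fall on 1 tick). Between its first and last gene start, chromosome 1 is filled but for 1 short gap in each of 3 sets. These are mESC dTAG (30 kb), 2CLC dTAG (5 kb) and the unnamed set (10 kb), and the flanks hold further gaps. The second part of the chromosome 12 cluster is broken up differently in each sorted set, and mESC DMSO alone has the 135 kb gap on chromosome 13.

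The clade B cluster on chromosome 13 had a gap of 135 kb in mESC DMSO that was closed in the other sorted lists. Its span held 4, 3, 2, 4 and 3 domains in the 5 lists, so other, shorter gaps were present. It runs from the start of Serpinb1a at 32851185 to that of Serpinb6a at 34002794, a span of 1152 kb with 15 serpins and 3 other protein-coding starts. Inside were 10 of the 15 in mESC DMSO, 11 in each of the 3 other sorted lists, and 14 in the unnamed set. Domains covered 74.7, 89, 90.3, 93.8 and 94.8% of the span. The genes encode relatives of the leukocyte elastase inhibitor (Serpinb1), of Serpinb6, which inhibits cathepsin G, and of Serpinb9, the granzyme B inhibitor with which cytotoxic lymphocytes protect themselves.

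In mESC DMSO a gap of 135 kb separated the domain with Serpinb9c, Serpinb9d, Serpinb9e and Serpinb9f (270 kb) from the domain with Serpinb6d, Serpinb6e and Serpinb6c (425 kb). In the other sorted lists 1 domain ran through, with widths of 875, 870 and 840 kb. Serpinb9g, at the far end of the gap, was 3.1 kb outside in mESC DMSO and 406.9, 401.9 and 401.9 kb inside in the others. The repeat content of this gap was high, with 73% of its 50-base words found more than once on the chromosome, beside 24.4% of the cluster span and 7.71% of chromosome 13. The body of Serpinb9g was at 70.4% and that of Serpinb9f at 51.1%. The part of repeated sequence in this gap was not tested, and reads that match several places were assigned to one by the alignment. The likeness of these copies is shown by the 120 bases before the RefSeq starts on the plus strand, at chr13:33249488-33249607, chr13:33323957-33324076 and chr13:33484670-33484789 of GRCm38.p6, with the longest run common to all 3 (21 bases) in capitals.
Serpinb9e: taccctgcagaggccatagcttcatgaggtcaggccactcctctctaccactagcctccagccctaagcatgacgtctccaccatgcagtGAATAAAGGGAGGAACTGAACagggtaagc
Serpinb9f: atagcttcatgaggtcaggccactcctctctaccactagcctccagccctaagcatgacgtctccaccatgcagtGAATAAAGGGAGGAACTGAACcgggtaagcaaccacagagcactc
Serpinb9g: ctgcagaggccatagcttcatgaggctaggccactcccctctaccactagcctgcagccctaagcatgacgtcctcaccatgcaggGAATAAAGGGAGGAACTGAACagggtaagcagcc
Between Serpinb9e and Serpinb9f alone the longest identical run within the 250 bases before the start was 165 bases, the longest of any pair of matched serpins on one chromosome. Of 312 such pairs, 15 shared a run of 50 bases or more.

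**Figure D4:**
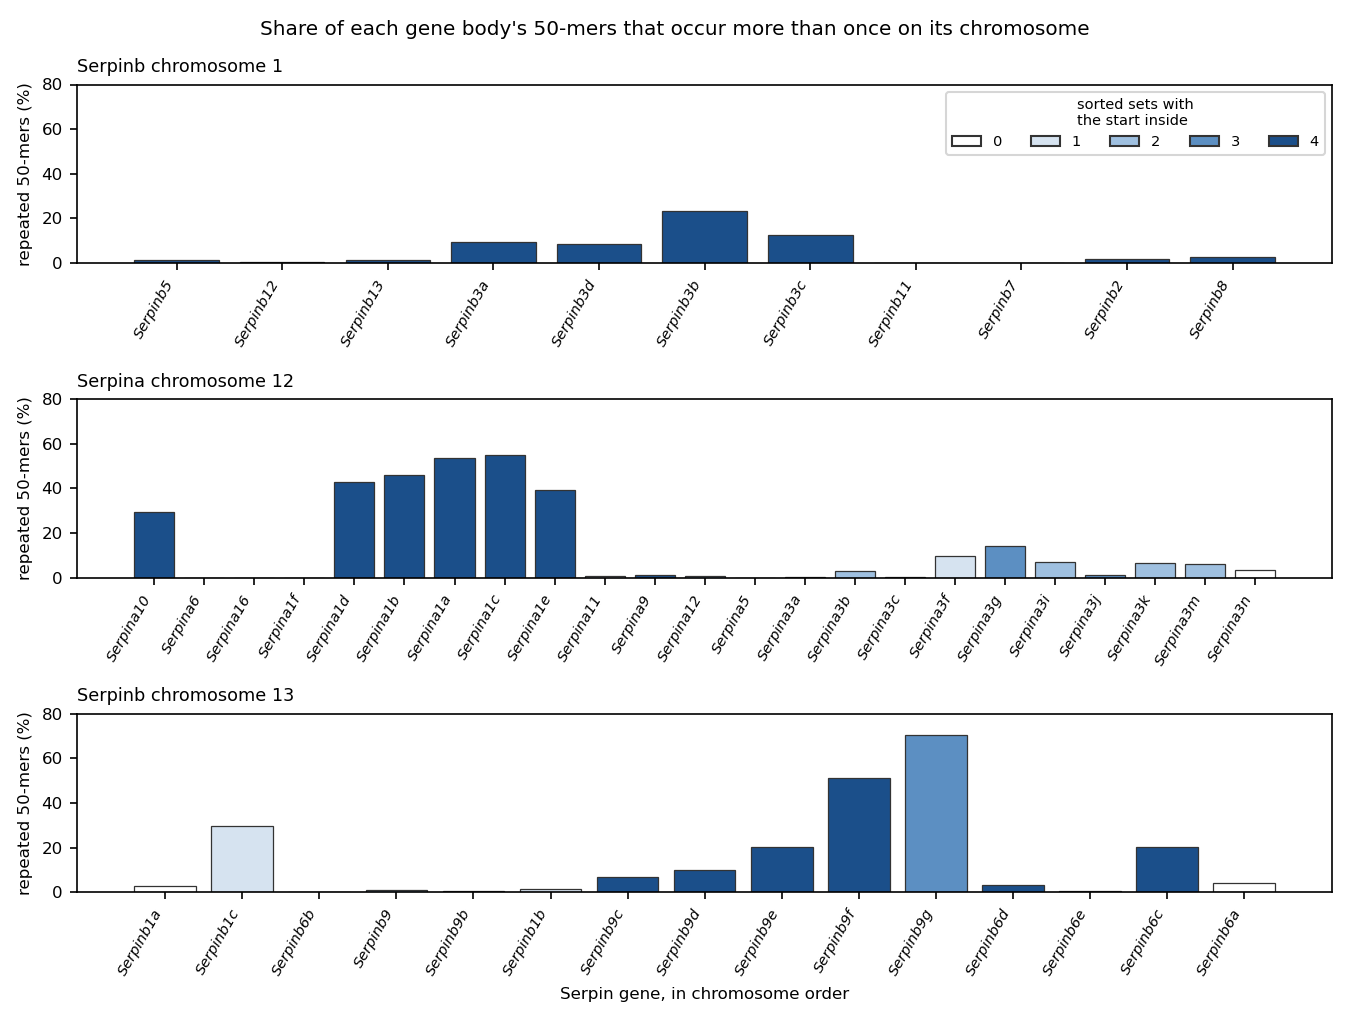
Bars give the percentage of 50-base words in each gene body that occur more than once on the same strand of its chromosome, for the 3 large clusters in chromosome order, shaded by the number of sorted sets (0 to 4) in which the gene start lies inside a domain. The tallest bars are the Serpina1a to Serpina1e copies (39.5 to 55.1%), Serpinb9f (51.1%) and Serpinb9g (70.4%), while most other members stand below 10%.

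The ends of the chromosome 13 cluster lay outside domains. Serpinb6a, the last gene, was 89.9, 49.9, 49.9 and 39.9 kb outside in the 4 sorted lists and 49.7 kb outside in the unnamed set, whereas its neighbour Serpinb6c was inside in all 5. Its promoter was the only one of the 46 matched among clustered serpins that was rich in CpG (GC content of at least 50% and an observed to expected CpG ratio of at least 0.6), with 20 CpG in 250 bases. Serpinb1a, the first gene, was 56.7 kb outside in mESC DMSO, mESC dTAG and 2CLC DMSO, 1.7 kb outside in 2CLC dTAG and 3.1 kb inside in the unnamed set. Serpinb1c was 9.7 kb outside in those 3 lists and 45.3 kb inside in 2CLC dTAG. At a RefSeq start 42417 bp away, next to Serpinb6b, it was inside in all 5 lists. At another RefSeq start, that of its matched promoter (32898140), it was outside in those 3 lists and inside in 2CLC dTAG.

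A pair of genes in the middle of this cluster sat at the edge of short gaps. Serpinb9 was 10.3 kb inside in mESC DMSO and 74.7 kb inside in 2CLC DMSO, and it was 5.3 and 0.3 kb outside in mESC dTAG and 2CLC dTAG. At a RefSeq start 6189 bp away it was inside in all 5 lists. At another RefSeq start, that of its matched promoter (33004541), it was inside in both DMSO lists and outside in both dTAG lists. Serpinb1b was 0.7 kb outside in both DMSO lists, 4.3 kb outside in 2CLC dTAG and 0.7 kb inside in mESC dTAG, and both its neighbours, Serpinb9b and Serpinb9c, were inside throughout. The outside calls of Serpinb9 and all sorted calls of Serpinb1b at these GENCODE starts thus lay close to an edge. At the RefSeq start of its matched promoter (33084103), Serpinb1b was inside in all 5 lists.

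The starts of the pair on chromosome 3 bounded a span that was mostly in domains. Serpini1 is neuroserpin, an inhibitor of tissue plasminogen activator in the brain, and Serpini2 is a pancreatic relative. Between their starts, 287 kb apart, domains covered 85.2, 83.3, 85, 78.3 and 78.3% of the span in the 5 lists, so the space between the genes was mostly in a domain although few of the starts were. Serpini2 was 0.7 kb outside in mESC DMSO and in 2CLC dTAG, where its start lay in a gap of 1 bin of 5 kb between domains. It was 239 kb deep in a domain of 1790 kb with dTAG in mESCs, and 45.7 kb inside one of 290 kb in 2CLC DMSO. Most of its body (97.6%) was nevertheless covered in mESC DMSO and 2CLC dTAG. Serpini1 was 38.1, 48.1, 43.1, 53.1 and 27.6 kb outside in the 5 lists. The stretch before Serpini2, whose start moved in opposite directions with dTAG in the 2 cell states, is AT-rich and holds 1 CpG, in capitals, in the 120 bases at chr3:75270079-75270198 (minus strand, GRCm38.p6).
Serpini2: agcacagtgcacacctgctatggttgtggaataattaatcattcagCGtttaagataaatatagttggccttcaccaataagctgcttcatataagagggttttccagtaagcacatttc

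The pair on chromosome 11 was far from domains in DMSO. Serpinf1 (pigment epithelium-derived factor) and Serpinf2 (the plasmin inhibitor alpha-2-antiplasmin) start 17 kb apart, and no base of that span was covered in any list. The nearest domain to Serpinf1 was 1053 kb away in both DMSO lists and 28 and 33 kb away with dTAG in mESCs and 2CLCs. Serpinf2 was at 1070 kb in both DMSO lists and at 44.9 and 49.9 kb in mESC dTAG and 2CLC dTAG. In mESC DMSO these were the farthest of all serpins, followed by the single gene Serpinh1 at 1049 kb.

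The single serpins with their start in no domain of any list were Serpinc1, Serping1, Serpinh1 and Serpind1. Serpinc1 (antithrombin) was 421 kb from a domain in both DMSO lists, 149 kb in both dTAG lists and 272 kb in the unnamed set. Serpind1 (heparin cofactor II) was at 461 and 481 kb in mESC DMSO and 2CLC DMSO and at 103 kb in both dTAG lists. Serpinh1 was at 1049 and 48.7 kb in mESCs with DMSO and dTAG, and at 1374 and 361 kb in 2CLCs. Serping1 (the C1 inhibitor of complement and kallikrein) stayed at 117 kb in 3 sorted lists and at 102 kb in 2CLC dTAG. For Serpinc1, Serpind1 and Serpinh1 the distance was shorter with dTAG, whichever the cell state. The same held over all genes outside domains, whose median distances were 328, 150, 346 and 107 kb in the 4 sorted lists.

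Serpine2 and Serpine3, both of clade E, were single serpins whose starts entered or left domains. Serpine2 (protease nexin 1) lay 71.1 kb inside a domain of 380 kb in mESC DMSO and was 23.9 kb outside in mESC dTAG. In 2CLC DMSO its GENCODE start was 1.1 kb inside a domain of 365 kb that covered 1.6% of the gene body, and its RefSeq start, 2515 bp away, was outside. In 2CLC dTAG it was 18.9 kb outside. The domain thus covered the whole gene in mESC DMSO and lay almost wholly upstream of it in 2CLC DMSO. Its promoter was the richest in CpG of the 51 matched serpins, with 34 CpG and a GC content of 78.8% in 250 bases. Part of it is shown with CpG in capitals, for the 89 bases at chr1:79858697-79858785 (minus strand, GRCm38.p6) that no annotated exon covers.
Serpine2: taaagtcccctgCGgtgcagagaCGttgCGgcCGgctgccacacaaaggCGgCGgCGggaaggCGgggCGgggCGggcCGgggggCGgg
Serpine3 lay 2.4 kb inside a domain of 30 kb in 2CLC dTAG and 22.7 kb inside one of 305 kb in the unnamed set. It was 338, 7.6 and 388 kb outside in mESC DMSO, mESC dTAG and 2CLC DMSO.

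The dTAG and DMSO lists were compared by starts leaving or entering domains. In mESCs, 7 of the 43 serpins inside in DMSO were outside in dTAG (16.3%, beside 22.7% of all genes inside in DMSO), namely Serpine2, Serpina12, Serpina5, Serpina3a, Serpina3b, Serpina3f and Serpinb9. In the other direction, 5 of 17 outside in DMSO were inside in dTAG (29.4%, beside 7.92%), among them Serpini2, Serpina11, Serpinb1b and Serpinb9g. In 2CLCs, 7 of 38 left (18.4%, beside 18.4%): Serpine2, Serpini2, Serpina5, Serpina3a, Serpina3b, Serpina3c and Serpinb9. The 5 of 22 that entered (22.7%, beside 9.60%) were Serpina12, Serpina3g, Serpina3j, Serpinb1c and Serpine3. The share leaving was thus not above that of all genes in either state. The share entering was above it, but 3 of the 5 in mESC and 2 of the 5 in 2CLC lay within 5 kb of an edge in the lists compared. Under other ways of placing the genes or edges, the count that entered was 2, 4 or 5 in mESC and 3, 4, 6, 9 or 12 in 2CLC. Of those that left, 1 of 7 in mESC and 3 of 7 in 2CLC lay within 5 kb of an edge. Under those other ways the count that left was 6, 9 or 10 in mESC and 5, 6 or 7 in 2CLC. No share of all genes was set beside these counts. Serpine2, Serpina5, Serpina3a, Serpina3b and Serpinb9 left in both states, and no serpin entered in both. At the RefSeq starts used as an alternative, only Serpina5, Serpina3a and Serpina3b of these 5 left in both. There, Serpine2 was already outside in 2CLC DMSO and Serpinb9 was inside in every list. At another RefSeq start of Serpinb9, that of its matched promoter, it also left in both. Serpinb1b was inside in every list at the RefSeq start of its matched promoter, so there it did not enter in mESC.

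The cell states were compared within each treatment. In DMSO, 7 of 43 serpins inside in mESC were outside in 2CLC (16.3%, beside 14.0%), namely Serpina12 and, in the last 225 kb of the chromosome 12 cluster, Serpina3f, Serpina3g, Serpina3i, Serpina3j, Serpina3k and Serpina3m. Serpini2 and Serpinb9g, 2 of 17, were inside only in 2CLC (11.8%, beside 4.67%). In dTAG, 8 of 41 were inside in mESC and outside in 2CLC (19.5%, beside 14.3%), among them Serpini2, Serpina11, Serpina3c, Serpina3i, Serpina3k, Serpina3m and Serpinb1b. At the RefSeq start of its matched promoter, Serpinb1b was inside in both of these lists. In the other direction, 3 of 19 were inside only in 2CLC (15.8%, beside 7.72%): Serpina12, Serpinb1c and Serpine3. These 4 comparisons share lists in pairs, so their counts are not independent.

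Some placements were close to an edge. Of the 300 placements (60 genes in 5 lists), 24 in 15 genes were within 5 kb of a domain edge, and 13 of the 20 serpins that differed between sorted lists were among the 15 genes. Among starts outside domains, 3 of 11, 1 of 13, 1 of 16, 9 of 18 and 0 of 4 clustered serpins were this close in the 5 lists. Over all genes these were 581 of 16354, 612 of 16070, 521 of 16214, 843 of 15505 and 792 of 14599. For starts inside domains, no such count over all genes was made.

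The surroundings of the chromosome 1 and 13 clusters were more like each other than like those of the chromosome 12 cluster. In the 500 kb on each side of a start, the median GC content was 39.2% on chromosome 1, 46.3% on chromosome 12 and 41% on chromosome 13, beside 44.3% for all genes and 39.8% for the 2998 genes inside in all 4 sorted lists. The share of soft-masked bases, a mark of interspersed repeats, was 41.2, 25.6 and 39.3% for the 3 clusters, beside 30.5% for all genes and 44.5% for those inside in all 4 lists. The median number of other protein-coding starts in the same window, here with neighbouring serpins counted, was 11, 23 and 13. It was 16 for all genes and 19 for those inside in all 4 lists. The chromosome 12 cluster thus lay in sequence richer in GC and poorer in repeats than the median gene inside domains. The chromosome 1 and 13 clusters lay nearer to that gene in GC and repeats, whereas by the number of starts the chromosome 12 cluster was the nearest. The 7 single genes had medians of 43.8% GC, 31.4% soft-masked sequence and 13 other starts. Repeated 50-base words made up 11, 16.6 and 24.4% of the 3 cluster spans, beside 7.11, 9.39 and 7.71% of chromosomes 1, 12 and 13, so each span held more than its chromosome.

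In the RefSeq promoter table, 51 of the 60 serpins had a promoter. Over the 250 bases before the start their median CpG count was 2, beside 6 for all entries, and 2 of the 51 (3.92%) were rich in CpG by the limits given above, beside 31.6% of all entries. None of the 26 matched serpins inside in all 4 sorted lists was rich in CpG, and 1 of the 8 inside in none was (Serpinb6a). TATAAA on either strand was found in 13 of the 51 (25.5%), beside 12.4% of all entries. A match to these letters is a description of the sequence and does not show a binding site.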

How the data were processed

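H3K9me2 was measured by ULI-NChIP, a native ChIP for low cell numbers, with antibody ab1220. According to the methods, the authors aligned reads to mm10 with STAR in a multi-mapping mode, removed duplicates and regions of artificially high signal, scaled coverage to genome content, and averaged it in overlapping windows on a 5 kb grid. They took the log2 ratio of ChIP to input and grew domains from bins in a high percentile until a bin in a low percentile. The submitters' processing notes name STAR 2.7.10, Picard 2.26.0, SAMtools 1.14, bedtools 2.30.0, deepTools 3.5.1 and R 4.1.2. Whether replicates were pooled, and whether percentiles were set per list, is not given in the sources used here. The 5 deposited lists hold chromosome, start and end, with a score of 0 throughout, and the score was not used. The depth of the libraries is unknown, so no counting interval was given. No domain passed the end of an autosome of GRCm38.p6.

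Starts were the outermost 5′ transcript ends of GENCODE M21, and a start was inside when a domain held that base. Python 3.11.15 and numpy 2.4.6 were used, and the interval functions were tested on simulated intervals. Repeated 50-base words were counted on one strand of one chromosome. Promoters came from RefSeq (GRCm38.p6), 1 per gene, the one nearest to the GENCODE start. Their starts could differ from the RefSeq starts used as an alternative placement, as for Serpinb9, Serpinb1b and Serpinb1c. The members, gene lists and limits were chosen with earlier results of these data known. Genes named were every serpin that differed between sorted lists and every single serpin inside in any list, except 1 gene that is not reported here, the first and last gene of each cluster, neighbours of which one was inside and one outside in mESC DMSO, and the 3 serpins farthest from a domain there, with others given by counts. Genes named as examples of function, repeat content or promoter composition, the proteases and the other genes within cluster spans fall outside this rule and were chosen after their values were seen. Alternatives were the gene body in place of the start, wider domains only, trimmed or extended domains, other gaps, flanks and spans, leaving out each cluster, chromosome X, pseudogenes and, chosen after seeing the data, RefSeq starts.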

Additional observations from a re-analysis of the deposited data

Results flagged for a closer look

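The share of the chromosome 12 clade A cluster in domains changed in opposite directions with dTAG, by -20 points in mESC and by 9.7 points in 2CLC. Each value compares 1 list with 1 list, so the difference was not tested. The rise in 2CLC was 3.2 points with domains of at least 50 kb only and 4.6 points with 100 kb on both sides of the span, and by starts both states fell, from 21 to 17 and from 14 to 13.

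The starts of 2 serpins, Serpini2 and Serpina12, entered domains with dTAG in one cell state and left them in the other. Serpini2 was inside in mESC dTAG and 2CLC DMSO, and Serpina12 in mESC DMSO and 2CLC dTAG. This was not tested either. In both sorted lists where it was outside, the start of Serpini2 was 0.7 kb from an edge, in a gap of 1 bin between domains.

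The unnamed set, which was assigned to no group, held 2 serpin starts that no sorted list held, Serpina3n at 20.4 kb and Serpinb1a at 3.1 kb from the nearest edge. At its RefSeq start, Serpinb1a was also inside in 2CLC dTAG.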

How the results depend on the processing

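The share of clustered serpins inside domains stayed above that of single serpins in all 75 values over 15 settings and 5 lists, by 41 (chromosome X included, 2CLC dTAG) to 73.6 percentage points, where settings that touch 1 class keep the main value of the other and some repeat the main values. With at least 50% of the gene body required in place of the start, the single share was 0% in both 2CLC lists and 2 serpins entered with dTAG in mESC. With any base of the body counted, 73.3% of all and 81.1% of clustered serpins were inside in 2CLC dTAG, and 2 (mESC) and 9 (2CLC) entered. With domains of at least 50 kb, the single share in 2CLC dTAG was 0%. With domains trimmed by 1 bin it was 0% in both 2CLC lists and 3 entered in 2CLC. With domains extended by 1 bin, 76.7% of all and 83% of clustered serpins were inside in 2CLC dTAG, and 2 (mESC) and 12 (2CLC) entered. With RefSeq starts, an alternative chosen after seeing the data, the single share was 0% in 2CLC DMSO, and 5 serpins (Serpine2, Serpina3m, Serpinb1a, Serpinb1c and Serpinb9) changed placement. For Serpinb1c and Serpinb9, the RefSeq start of the matched promoter had the same placement as the GENCODE start. For Serpinb1b, whose alternative RefSeq start kept its placement, the start of the matched promoter was inside in all 5 lists. The other 193 recomputed shares and counts stayed within their 95% Wilson interval, or within 1.5 times for counts. That interval takes genes as independent, which they are not, and is wide for 7 single genes. Of 75 recomputed cluster coverages, 21 moved by over 10 points, 14 of them with 100 kb flanks. The causes were not tested. Counts of starts entering domains depend most on the placement of edges, while lists without replicates and of unknown depth limit every value. No paired analysis was possible because no result comes from a test.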
